A study of Sus scrofa with 12 samples.

Results

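TCF21, HAND2, GATA6, MEIS1, FOXS1, ERG and TOX are 7 transcription factors that mark or steer cell lineages. They are described here across cultured porcine coronary artery smooth muscle cells that received PDGF-BB together with S100A4, PDGF-BB alone, S100A4 alone, or neither. The 7 genes were chosen by their fold changes between treatments in an earlier analysis of these same libraries, so their levels and differences between treatments are given as a description. Each symbol matched 1 gene of the 21153 in the count table, and all 7 passed the filter on low counts that left 12444 genes for testing.

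The labels describe primary cultures of a differentiated, contractile phenotype, and the design text says that cells came from 3 animals. Cultures at passage 6 to 11 were seeded in 35 mm dishes at a density of 60 cells per mm2, in medium with 10% serum, and received their treatment after 24 h. The PDGF-BB+S100A4 group received 30 ng/ml PDGF-BB and 1 µg/ml S100A4, the PDGF-BB group 30 ng/ml PDGF-BB, the S100A4 group 1 µg/ml S100A4, and the control group neither protein. The design text spells the added S100A4 as oS100A4, a prefix that no label explains. RNA was taken after 4 h in all 4 groups, each with 3 libraries numbered 1 to 3. The labels name no genetic change in these cells, and the serum medium was common to all groups.

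PDGF-BB is platelet-derived growth factor as a dimer of B chains. It binds receptor tyrosine kinases on smooth muscle cells and is known for driving their division, migration and loss of contractile gene expression. S100A4 is a small calcium-binding protein that cells also release. Lineage transcription factors bind DNA through family-specific domains. TCF21 and HAND2 have basic helix-loop-helix domains, GATA6 has zinc fingers, and MEIS1 has a homeodomain of the TALE class. FOXS1 has a forkhead domain, ERG an ETS domain and TOX an HMG box. In coronary arteries TCF21 is best known from the epicardium, whose cells give rise to adventitial fibroblasts and coronary smooth muscle.

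In the Sscrofa11.1 assembly, which the submitters' processing notes also name, RefSeq places TCF21 (ENSSSCG00000033258) on chromosome 1 at 29975280 to 29978273 and HAND2 (ENSSSCG00000031537) on chromosome 14 at 16460089 to 16462979. GATA6 (ENSSSCG00000003702) lies on chromosome 6 at 107282709 to 107314725 and overlaps the locus LOC100525229. The use of strand in the counting is not given in the sources used here, so reads from that locus and from GATA6 cannot be told apart. MEIS1 (ENSSSCG00000039161) lies on chromosome 3 at 75485024 to 75625855 and FOXS1 (ENSSSCG00000033613) on chromosome 17 at 35523408 to 35537618. ERG (ENSSSCG00000022318) lies on chromosome 13 at 201999237 to 202302572 beside its family member ETS2, and TOX (ENSSSCG00000006235) on chromosome 4 at 73810180 to 74115352.

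Counts per library summed to between 21455021 and 32448438. The libraries with replicate number 2 stood apart in every treatment group. The summed level of 10 smooth muscle markers was 11438 to 13386 CPM (the usual count per library size, scaled by TMM) in the 4 replicate 2 libraries and 23041 to 28514 CPM in the other 8. Of 8 fibroblast markers 6 were highest in replicate 2, among them PDGFRA at a mean of 138 CPM, whereas COL14A1 (587 CPM) and MFAP5 (21.5 CPM) were lowest there. Of 6 macrophage markers, the leucocyte gene PTPRC had 0 counts in all 12 libraries and CD163 at most 1. CD14 had 138 to 249 counts in a library, CD68 15 to 32, CSF1R 14 to 36 and AIF1 3 to 10. The contractile marker ACTA2 averaged 12763 CPM and MYH11 1002 CPM, whereas TAGLN, also a smooth muscle marker, averaged 5.47 CPM. In a bulk culture, fewer cells of a type and less RNA per cell cannot be told apart.

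Libraries with the same number deviated from their group means together, so a second fit, which holds replicate number as a block, is given wherever it changed a call or moved a count by over 1.5 times. Differences below are log2 fold changes ± SE from edgeR's quasi-likelihood fit of the 4 group means (called groups alone; 3 libraries in each group) unless the block is named. A gene passed when its p-value, adjusted over all tested genes by Benjamini-Hochberg, was under 0.05.

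**Figure D1:**
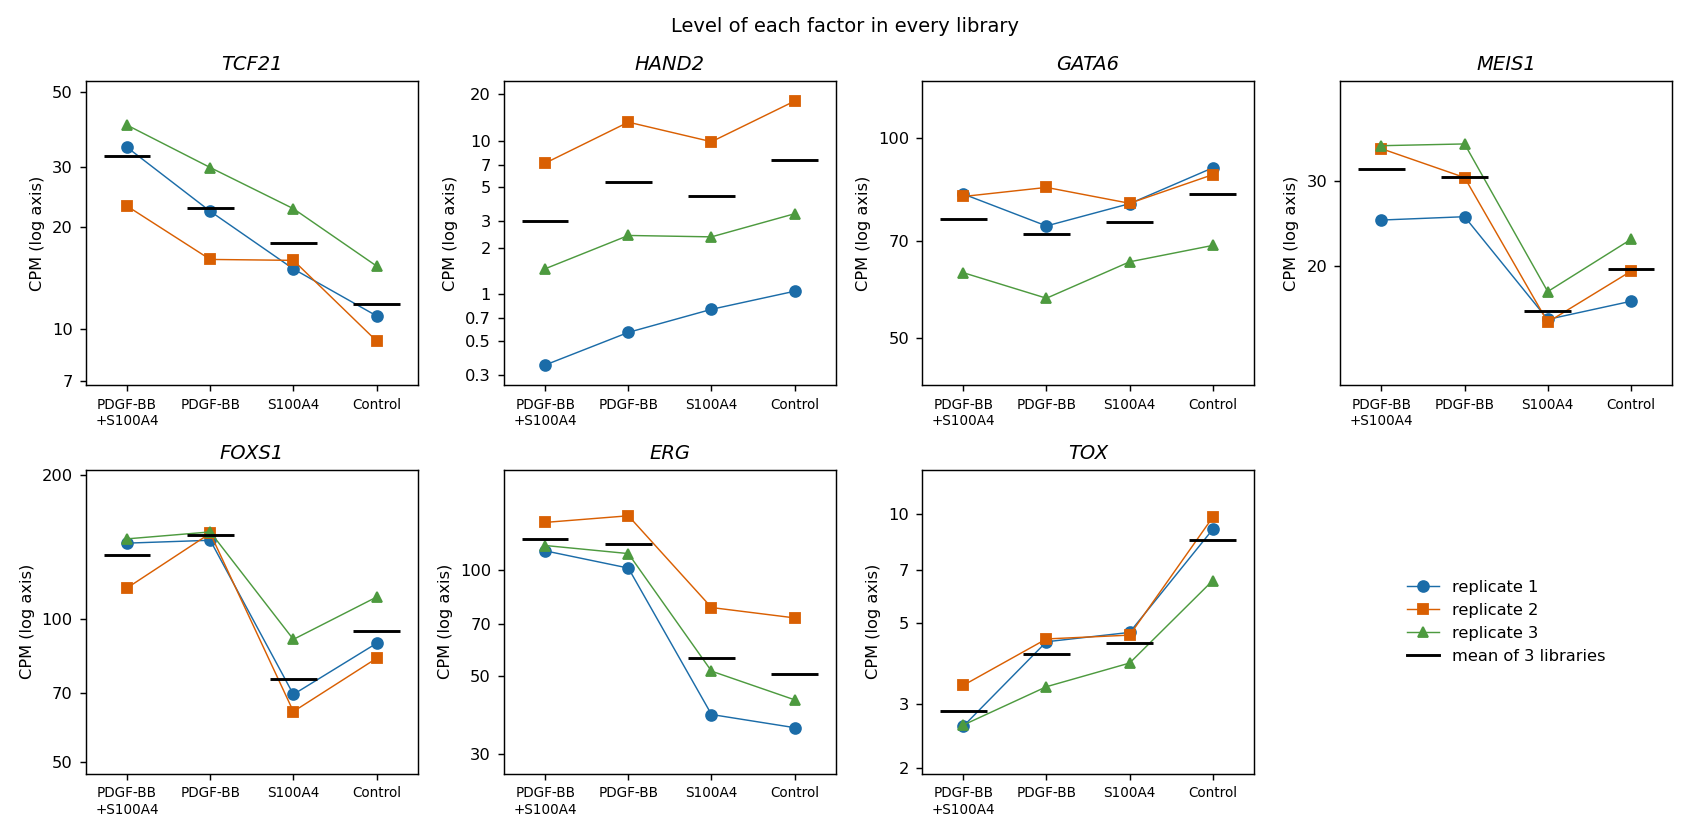
Level of each factor in every library, in CPM on a log axis, by treatment group; points of 1 replicate number are joined by a line and black bars are means of 3 libraries. TCF21 is highest with both proteins and TOX lowest, MEIS1, FOXS1 and ERG split into libraries with and without PDGF-BB, and HAND2 is spread mainly by replicate number.

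TCF21, which in mice is needed for epicardial cells to become fibroblasts, was highest with both proteins. Its level was 34.3, 23.0 and 39.9 CPM in PDGF-BB+S100A4 cells (replicates 1, 2 and 3), 22.2, 16 and 29.9 CPM in PDGF-BB cells, 15.0, 15.9 and 22.6 CPM in S100A4 cells, and 10.9, 9.19 and 15.3 CPM in control cells. Within each replicate number the order of the 4 groups was the same: both proteins, PDGF-BB, S100A4, control. Neighbours in that order overlapped when replicate numbers were pooled, whereas both groups with PDGF-BB lay above every control library.

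The difference of TCF21 from control was 1.46 ± 0.30 with both proteins and passed. With PDGF-BB alone it was 0.95 ± 0.29 and missed the threshold on groups alone in edgeR (adjusted p = 0.057). DESeq2 on the same groups called it (0.94, adjusted p = 0.015), and so did edgeR without PDGF-BB replicate 2 (1.15), PDGF-BB+S100A4 replicate 2 (0.95) or replicate 2 as a whole (1.02). With S100A4 alone the difference was 0.60 ± 0.29 and missed the threshold. With the replicate block both single treatments passed (PDGF-BB 0.94 ± 0.10, S100A4 0.61 ± 0.10). Set against control of the same number, TCF21 stood at 276 ± 35.0% with both proteins, 192 ± 15.5% with PDGF-BB and 153 ± 17.7% with S100A4 (mean ± SD of 3 replicate numbers). Adding S100A4 to PDGF-BB gave a difference of 0.52 ± 0.09 with the block, against PDGF-BB alone.

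HAND2, a factor of the embryonic heart ventricle and outflow tract, ran the other way at a lower level. It had 0.348, 7.15 and 1.47 CPM in PDGF-BB+S100A4 cells, 0.567, 13.2 and 2.42 CPM in PDGF-BB cells, 0.801, 9.85 and 2.37 CPM in S100A4 cells, and 1.05, 18.1 and 3.35 CPM in control cells. The replicate 2 libraries were the highest of every group, and the 4 groups overlapped throughout. Behind these levels stood 8 to 26 counts in replicate 1, 180 to 535 in replicate 2 and 34 to 75 in replicate 3. Within every replicate number, control was highest and both proteins together lowest.

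On groups alone HAND2 was −1.33 ± 1.43 with both proteins, −0.48 ± 1.4 with PDGF-BB and −0.79 ± 1.41 with S100A4 against control, and none of these passed. With the block the same differences were −1.32 ± 0.14, −0.50 ± 0.12 and −0.74 ± 0.13, and all passed. HAND2 stood at 38.8 ± 5.28% of the control of its number with both proteins, at 66.3 ± 10.5% with PDGF-BB and at 67.2 ± 11.5% with S100A4. Leaving out control replicate 2 turned the groups-alone value to 0.46 with both proteins, to 1.30 with PDGF-BB and to 0.99 with S100A4. With the block kept, no library or number left out reversed these differences. They ranged from −1.36 to −1.25, from −0.66 to −0.42 and from −0.82 to −0.46, in the same order.

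TOX, a chromatin-binding HMG box factor best known from T-cell development, was lower with each treatment. Its level was 2.61, 3.38 and 2.63 CPM in PDGF-BB+S100A4 cells, 4.45, 4.53 and 3.35 CPM in PDGF-BB cells, 4.72, 4.64 and 3.89 CPM in S100A4 cells, and 9.05, 9.77 and 6.55 CPM in control cells. Every treated library lay below every control library, while the 3 treated groups had overlapping neighbours. Differences from control were −1.56 ± 0.20 with both proteins and −1.04 ± 0.19 with PDGF-BB, and both passed. With S100A4 the difference was −0.94 ± 0.19, which missed the threshold on groups alone and passed with the block (−0.93 ± 0.11). TOX thus stood at 34.5 ± 5.64%, 48.9 ± 2.4% and 53.0 ± 6.03% of control in cells with both proteins, PDGF-BB and S100A4, in that order.

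**Figure D2:**
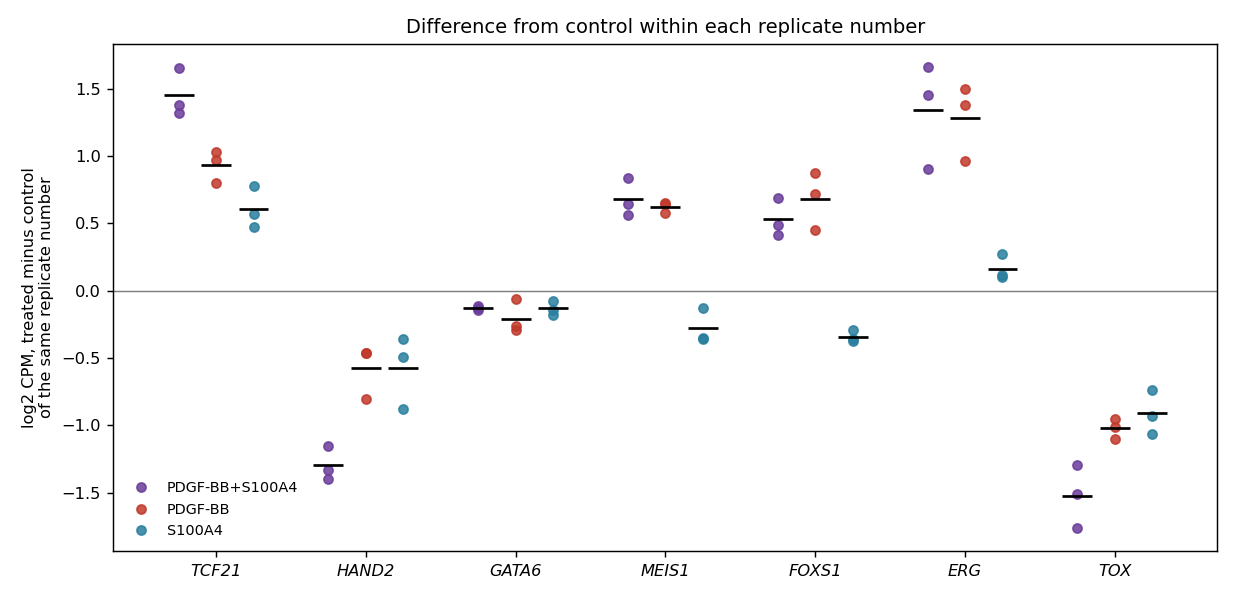
Difference of each factor from control within each replicate number, in log2 CPM; points are the 3 replicate numbers and bars their means. All 3 points of a factor lie on 1 side of 0 in each of the 3 comparisons; MEIS1 and FOXS1 lie above 0 with PDGF-BB and below 0 with S100A4 alone.

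For MEIS1, FOXS1 and ERG, libraries with PDGF-BB did not overlap those without it. How many of all tested genes split this way was not counted, and these factors were chosen by their treatment differences. MEIS1, a homeodomain partner of HOX and PBX proteins, had 24.9, 35.0 and 35.5 CPM in PDGF-BB+S100A4 cells, 25.3, 30.5 and 35.8 CPM in PDGF-BB cells, 15.5, 15.3 and 17.7 CPM in S100A4 cells, and 16.9, 19.5 and 22.7 CPM in control cells. S100A4 libraries were each below the control of their number. MEIS1 rose with both proteins (0.69 ± 0.17) and with PDGF-BB (0.63 ± 0.17) against control. With S100A4 its difference was −0.29 ± 0.17, which passed only with the block (−0.28 ± 0.08), and against S100A4 alone the combination was 0.98 ± 0.17.

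FOXS1, a forkhead factor found in mural cells of mouse vessels, had 144, 116 and 147 CPM in PDGF-BB+S100A4 cells, 146, 151 and 152 CPM in PDGF-BB cells, 69.4, 63.9 and 90.5 CPM in S100A4 cells, and 88.8, 82.6 and 111 CPM in control cells. The lowest library with PDGF-BB was still above the highest control library. FOXS1 rose with both proteins (0.53 ± 0.15) and with PDGF-BB (0.67 ± 0.15). The first of these missed the threshold under upper-quartile scaling (0.45) and when the 2 groups were fitted alone (0.53). In S100A4 cells FOXS1 was −0.34 ± 0.15 against control on groups alone and −0.34 ± 0.08 with the block, where it passed.

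ERG, an ETS factor that maintains endothelial identity, had 113, 136 and 117 CPM in PDGF-BB+S100A4 cells, 101, 142 and 111 CPM in PDGF-BB cells, 38.9, 78.1 and 51.6 CPM in S100A4 cells, and 35.7, 73.0 and 42.8 CPM in control cells. Replicate 2 was highest in every group. ERG rose with both proteins (1.27 ± 0.30) and with PDGF-BB (1.23 ± 0.30), while S100A4 alone gave 0.15 ± 0.30. Relative to the control of its number, PDGF-BB cells stood at 284% in replicate 1, 194% in replicate 2 and 260% in replicate 3. Fitted with only the PDGF-BB and control libraries, ERG and MEIS1 missed the threshold (1.23 and 0.64).

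**Figure D3:**
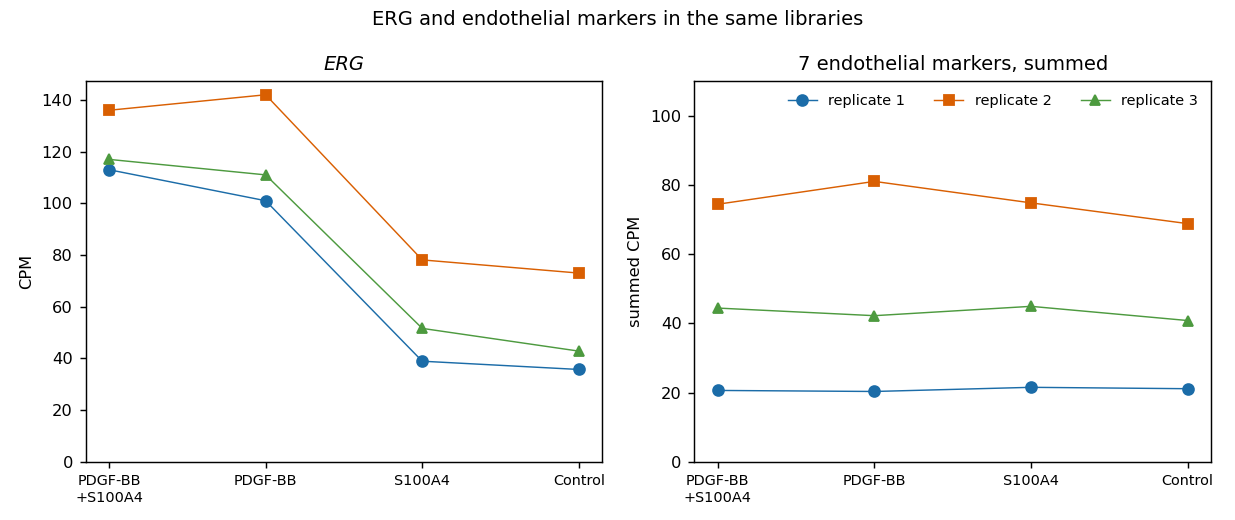
ERG (left) and the summed level of 7 endothelial markers (right) in every library, in CPM, by treatment group, with lines joining each replicate number. ERG is higher in the 6 libraries with PDGF-BB, whereas the marker sum differs mainly between replicate numbers.

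Since ERG is chiefly an endothelial factor, endothelial markers were read beside it. Of 10 listed markers 7 were in the table and 6 were tested. Their summed level was 20.6 to 74.4 CPM in PDGF-BB+S100A4 cells, 20.3 to 81.0 CPM in PDGF-BB cells, 21.5 to 74.8 CPM in S100A4 cells and 21.1 to 68.8 CPM in control cells. By replicate number it was 20.3 to 21.5 CPM in replicate 1, 68.8 to 81.0 CPM in replicate 2 and 40.8 to 44.9 CPM in replicate 3. The receptor KDR had at most 4 counts in a library and TEK at most 42. Fitted on groups alone, none of the 6 passed with both proteins or with PDGF-BB, and none had an unadjusted p under 0.05. With the block, TIE1 (0.45 ± 0.15) and EMCN (1.00 ± 0.34) passed with PDGF-BB and no marker passed with both proteins. Of all tested genes, 48.8% passed in that fit with PDGF-BB and 56.1% with both proteins. In replicate 1 CDH5 averaged 16.2 CPM, PECAM1 3.51 CPM, ESAM 1.02 CPM, TIE1 0.0515 CPM, TEK 0.0414 CPM and KDR 0.0111 CPM, and EMCN had no count. ERG there was at 113 CPM with both proteins and 101 CPM with PDGF-BB, against 35.7 CPM in control. The part of endothelial cells in the level of ERG was not tested.

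GATA6, a zinc finger factor that in mouse vessels maintains contractile smooth muscle genes, varied little with treatment. It had 82.3, 81.6 and 62.7 CPM in PDGF-BB+S100A4 cells, 73.7, 84.2 and 57.4 CPM in PDGF-BB cells, 79.6, 79.7 and 65.1 CPM in S100A4 cells, and 90.1, 88.0 and 68.9 CPM in control cells. All groups overlapped, and each treated library was below the control of its number. Differences from control were −0.12 ± 0.17 with both proteins, −0.20 ± 0.17 with PDGF-BB and −0.14 ± 0.17 with S100A4. Only the PDGF-BB difference passed with the block (−0.20 ± 0.05), which corresponds to 86.9 ± 7.60% of control.

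With both proteins 5 of the 7 factors passed against control on groups alone, where 22.0% of all tested genes did. With PDGF-BB 4 passed, against 14.7% of tested genes, and with S100A4 none did, against 0.563%. At an unadjusted p under 0.05, S100A4 gave 1 of the 7 (TOX), and DESeq2 with adjustment also called TOX. Over all 12444 tested genes, 767 had such a p with S100A4, and DESeq2 called 198 genes. With the block the counts were 6 with both proteins (56.1% of tested genes), 7 with PDGF-BB (48.8%) and 5 with S100A4 (10.7%). The groups did not overlap for 5 factors with both proteins (35.6% of tested genes), for 5 with PDGF-BB (29.8%) and for TOX alone with S100A4 (9.72%). All 7 kept 1 direction in 3 of 3 same-numbered pairs with both proteins, with PDGF-BB and with S100A4, as 70.3%, 69.3% and 47.8% of tested genes did in these 3 comparisons. Nothing is read from these counts, since the factors were chosen with such values known, and the 3 comparisons share their control libraries.

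Leaving out libraries, or all 4 libraries of a number, moved these counts on groups alone. With both proteins the count was 1 without replicate 1, 2 without control replicate 1, and 3 without PDGF-BB+S100A4 replicate 3 or without replicate 3. With PDGF-BB it was 0 without replicate 1, 1 without control replicate 1, and 2 without control replicate 2 or without replicate 3. Without replicate 1 only MEIS1 with both proteins passed (0.74). TCF21 with both proteins, and TOX with both proteins and with PDGF-BB, lost their calls in that setting alone (1.37, −1.44 and −1.05). ERG lost them as well without control replicate 1 (1.07 with both proteins, 1.03 with PDGF-BB), without control replicate 3 (1.17 and 1.12) or without replicate 3 (1.20 and 1.16), and with PDGF-BB without PDGF-BB replicate 2 (1.07). FOXS1 also lost them without control replicate 1 (0.48 with both proteins, 0.63 with PDGF-BB) or 2 (0.44 and 0.58), and with both proteins without PDGF-BB+S100A4 replicate 1 (0.48) or 3 (0.46). MEIS1 lost its call with both proteins without control replicate 1 (0.59), PDGF-BB+S100A4 replicate 2 (0.62) or 3 (0.60), and with PDGF-BB without control replicate 1 (0.53) or 2 (0.62), PDGF-BB replicate 2 (0.63) or 3 (0.50) or S100A4 replicate 1 (0.63). Replicate 2 or 3 left out as a whole also ended its calls in both comparisons.

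With the block and a library or number left out, 6 to 7 factors passed both with the combination and with PDGF-BB. Over all genes, 5312 to 7008 passed with the combination, 4372 to 6332 with PDGF-BB and 608 to 1521 with S100A4 in such fits. With PDGF-BB, HAND2 missed without control replicate 2 (−0.42) or replicate 2 (−0.54), and GATA6 without replicate 1 (−0.16) or replicate 3 (−0.17). With S100A4 2 passed without S100A4 replicate 2, where HAND2 (−0.46), FOXS1 (−0.29) and MEIS1 (−0.21) lost their calls, and 3 without control replicate 2, control replicate 3 or replicate 2. MEIS1, whose adjusted p was 0.041 in edgeR, lost its S100A4 call in 9 of the 15 such fits. TCF21 and TOX kept theirs in all 15.

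Setting the combination against PDGF-BB alone asks what S100A4 changed in its presence. None of the 7 passed on groups alone (0.273% of tested genes), 1 (TOX) had an unadjusted p under 0.05, and DESeq2 called none. Over all 12444 tested genes, 599 had such a p, and DESeq2 called 118 genes. With the block 3 passed (7.14% of tested genes): TCF21 was higher, and HAND2 (−0.82 ± 0.14) and TOX (−0.51 ± 0.13) were lower. Only TCF21 and HAND2 passed without any one of PDGF-BB replicate 1, PDGF-BB replicate 3, PDGF-BB+S100A4 replicate 1, replicate 1 or replicate 3, TOX then being at −0.40 to −0.58, only TCF21 did without PDGF-BB replicate 2 (HAND2 −0.65, TOX −0.53), and HAND2 missed without replicate 2 (−0.73). These 3 are also among the 5 that passed with S100A4 alone under the block. The groups overlapped for all 7 factors, whereas 8.69% of tested genes had no overlap. Of the remaining factors, MEIS1 was at 0.06 ± 0.07, FOXS1 at −0.15 ± 0.08, ERG at 0.06 ± 0.11 and GATA6 at 0.08 ± 0.05 with the block. Against S100A4 alone, MEIS1, FOXS1 and ERG passed on groups alone (15.0% of tested genes), and all but GATA6 passed with the block (47.8%). Groups did not overlap for 5 factors there, beside 30.0% of tested genes.

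Whether S100A4 acted differently with PDGF-BB present was tested as the interaction, the S100A4 difference with PDGF-BB minus that without it. On groups alone it passed for none of the 7 and for none of the 12444 genes, of which 152 had an unadjusted p under 0.05 and none was called by DESeq2. With the block it passed for 14 genes (0.113%), none of them among the 7, and 1183 of the 12444 had an unadjusted p under 0.05. The largest values with the block were 0.42 ± 0.17 for TOX (adjusted p = 0.48 in edgeR, unadjusted p = 0.024), 0.34 ± 0.11 for MEIS1 (adjusted p = 0.35, unadjusted p = 0.0078) and 0.21 ± 0.07 for GATA6 (adjusted p = 0.40, unadjusted p = 0.012). All 3 were positive in 3 of 3 replicate numbers, which 36.6% of tested genes were in 1 direction or the other. TCF21 was at −0.09 ± 0.14. Its approximate 95% interval, taken from the normal distribution and so too narrow with few libraries, reached from −0.36 to 0.18.

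On the log2 scale the TCF21 differences with PDGF-BB and with S100A4 added up to 1.55, beside 1.46 measured with both. For HAND2 the sum was −1.24 beside −1.32 measured, both with the block. TOX had a sum of −1.98 beside −1.55 measured with the block. MEIS1 had a sum of 0.35 beside 0.69, its differences with PDGF-BB and with S100A4 alone being of opposite sign. None of these gaps passed the interaction test.

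**Figure D4:**
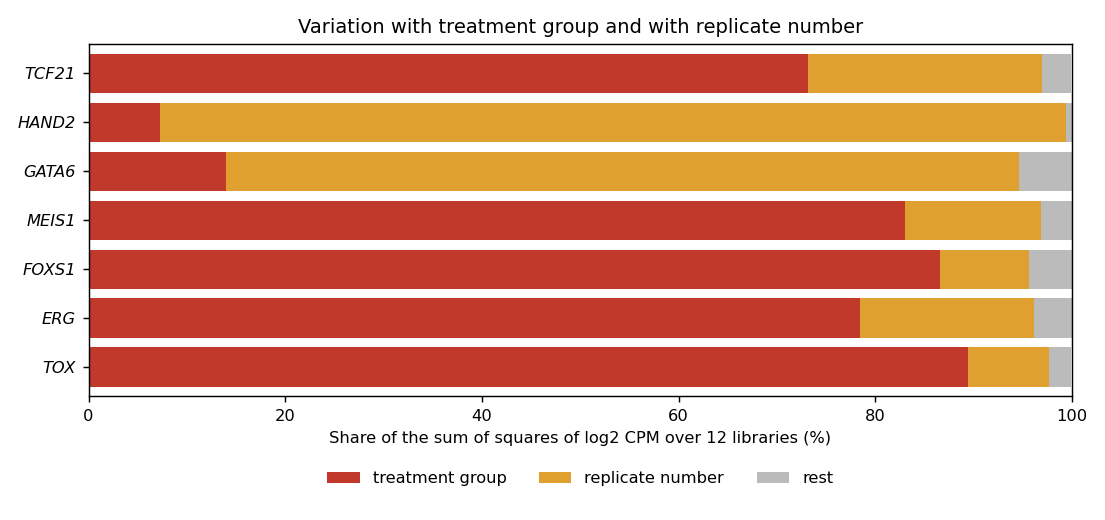
Share of the sum of squares of log2 CPM over 12 libraries that goes with treatment group, with replicate number and with neither, in percent, for each factor. Replicate number takes 92.1% for HAND2 and 80.6% for GATA6, and treatment group takes 73.2 to 89.4% for the other 5.

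The level of each factor also differed between replicate numbers at equal treatment, which is not the treatment change the genes were chosen by. The test shares its residual spread with the block fit, so it is not independent of treatment differences seen within replicate numbers. All 7 passed this test (edgeR's quasi-likelihood F test, adjusted p at most 0.005), as did 67.5% of tested genes. HAND2 stood out with a mean of 3.52 log2 CPM in replicate 2, 1.25 in replicate 3 and −0.47 in replicate 1. That range of 3.99, or 15.9-fold, was wider than in 99.3% of tested genes (adjusted p = 5.5e-12). In the other 6 factors the range was 0.32 to 0.73, beside a median of 0.31 over all tested genes.

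TCF21 was highest in replicate 3 and lowest in replicate 2 (range 0.73, adjusted p = 8.3e-06), so it did not share the order of HAND2. Of 6 mesothelial and epicardial markers 3 were in the table and 1, WT1, was tested. WT1 averaged 0.907, 0.539 and 3 CPM in replicates 1, 2 and 3, the order of TCF21 at a low level. UPK1B had at most 5 counts in a library and BNC1 at most 3. ERG was highest in replicate 2 (range 0.70, adjusted p = 6.8e-05), where 5 of 7 endothelial markers were highest too, ESAM and KDR being highest in replicate 3. GATA6 was lowest in replicate 3 (range 0.39, adjusted p = 4.2e-06). Fibroblast markers summed to 1598 to 1839 CPM in replicate 2 and to 1056 to 1531 CPM in the others, and the smooth muscle marker sum was lowest there. The part of these markers in the replicate differences of the 7 factors was not tested, and since no label ties a number to an animal, animal, passage and culture cannot be told apart.

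Treatment group took 89.4% of the variation of TOX over the 12 libraries, 86.6% for FOXS1, 83.0% for MEIS1, 78.5% for ERG and 73.2% for TCF21. For GATA6 it took 14.0% and for HAND2 7.28%, and replicate number took 80.6% and 92.1% for these. Over all tested genes the medians were 36.9% for treatment group and 40.9% for replicate number.

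To set the 7 factors among their kin, 153 other factors of the same families and of cardiac and vascular mesenchyme were listed, of which 135 were in the table and 114 were tested. With both proteins 19 rose and 21 fell against control, 35.1% of those tested, beside 22.0% of all tested genes. With PDGF-BB 16 rose and 16 fell, 28.1% beside 14.7%. With the block 37 rose and 46 fell with both proteins, 72.8% beside 56.1% of all tested genes. With PDGF-BB and the block 31 rose and 43 fell, 64.9% beside 48.8%. The median log2 difference of the 114 was −0.08 with both proteins and −0.12 with PDGF-BB, beside −0.03 and −0.02 over all tested genes. The counts by family below are to be read beside the same shares of all tested genes.

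With S100A4 none of the 114 passed on groups alone, 14 had an unadjusted p under 0.05 and DESeq2 called 5. Over all 12444 tested genes 0.563% passed and 767 had such a p, and DESeq2 called 198 genes. With the block 13 rose and 15 fell, 24.6% beside 10.7% of all tested genes. Under S100A4 the median was 0.01, beside −0.02 over all tested genes. None of the 114 passed the interaction test in either fit, where 1 on groups alone and 13 with the block had an unadjusted p under 0.05 and DESeq2 called none. Of all 12444 tested genes, 152 on groups alone and 1183 with the block had such a p.

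**Figure D5:**
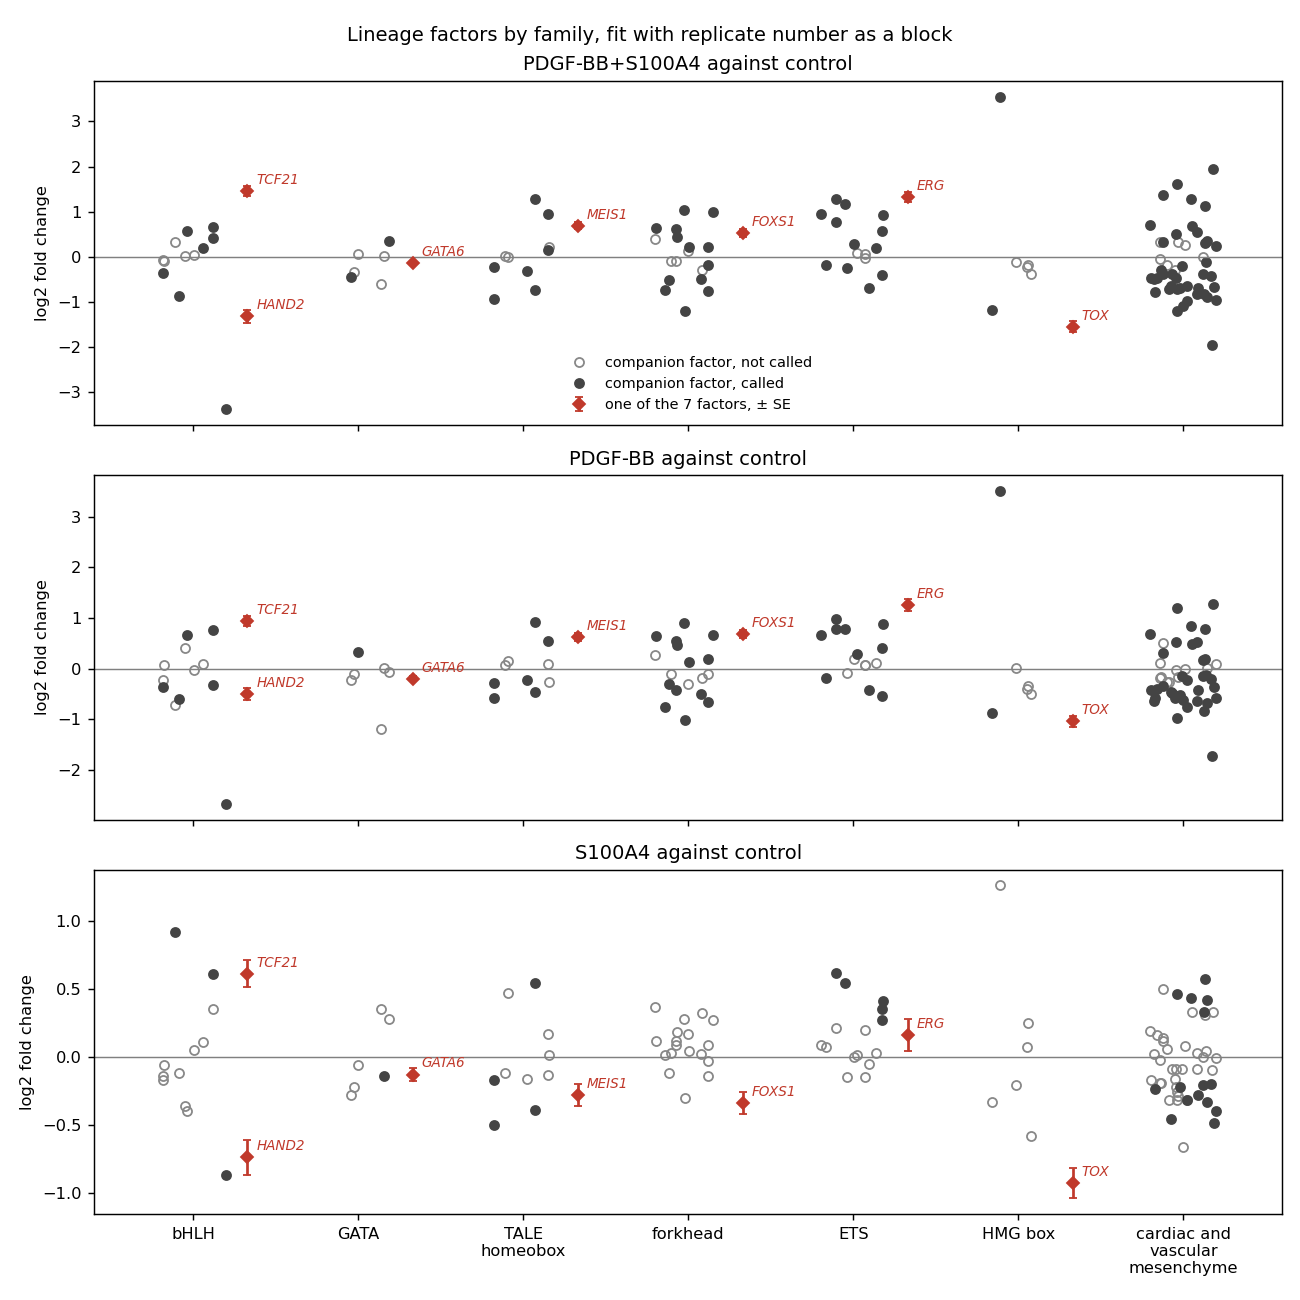
Log2 fold change against control of the companion factors by family (circles, filled where the adjusted p was under 0.05) and of the 7 factors (diamonds, ± SE), with the replicate block. The panels are PDGF-BB+S100A4, PDGF-BB and S100A4 against control, and their vertical scales differ.

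Of the ETS family, to which ERG belongs, 15 were tested. With both proteins 6 rose and 2 fell, and with PDGF-BB 5 rose and ELF1 fell. With S100A4 none passed on groups alone, and with the block ETS1, ELF1, ELK3, ELK4 and ETV3 rose, of which ELF1, ELK4 and ETV3 are named after their values were seen. ETS1, a founding member of the family, had 255 ± 48.3 CPM with both proteins, 209 ± 42.2 CPM with PDGF-BB, 160 ± 11.6 CPM with S100A4 and 104 ± 5.89 CPM in control cells (SD, n = 3 each). Its S100A4 difference was 0.62 ± 0.08 with the block (adjusted p = 0.00011). ELK3, a partner of serum response factor, had 112 ± 6.76 CPM with both proteins, 86.5 ± 4.99 CPM with PDGF-BB, 73.1 ± 10.3 CPM with S100A4 and 50.1 ± 9.12 CPM in control cells. With the block it was higher with both proteins than with PDGF-BB alone by 0.37 ± 0.06 (adjusted p = 0.0021).

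ETV5, which responds to growth factor signalling, rose with both proteins (0.78 ± 0.12) and with PDGF-BB (0.78 ± 0.12, adjusted p = 0.0018). ELF1 moved the other way: it had 33.2 ± 2.14 CPM with both proteins and 30.5 ± 1.97 CPM with PDGF-BB, against 44.0 ± 1.72 CPM in control cells. FLI1, the closest relative of ERG and singled out for that after its values were seen, had 7.97 ± 1.58 CPM with both proteins, 7.54 ± 2.25 CPM with PDGF-BB, 6.58 ± 1.69 CPM with S100A4 and 6.56 ± 1.8 CPM in control cells. Its difference from control was 0.28 ± 0.28 with both proteins and 0.20 ± 0.28 with PDGF-BB, and neither passed on groups alone, though the first did with the block (0.29 ± 0.10). ETS2, the neighbour of ERG on chromosome 13, rose with both proteins (0.94 ± 0.18) and with PDGF-BB (0.64 ± 0.18).

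In the TALE class, 10 relatives of MEIS1 were tested, and 2 rose and 2 fell both with the combination and with PDGF-BB. TGIF1, a homeodomain repressor that limits TGF-beta signalling, had 93.9 ± 5.54 CPM with both proteins, 73.5 ± 9.39 CPM with PDGF-BB, 56.3 ± 7.03 CPM with S100A4 and 38.8 ± 5.83 CPM in control cells. TGIF2 rose as well, by 0.95 ± 0.08 with both proteins (adjusted p = 6.9e-05) and by 0.55 ± 0.08 with PDGF-BB (adjusted p = 0.0019).

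MEIS2, the nearest relative of MEIS1, went opposite to it under PDGF-BB. It had 10.4 ± 0.748 CPM with both proteins, 12.6 ± 1.34 CPM with PDGF-BB, 13.1 ± 1.23 CPM with S100A4 and 17.2 ± 1.83 CPM in control cells. MEIS2 fell with both proteins (−0.73 ± 0.12, adjusted p = 0.0016) and with PDGF-BB (−0.45 ± 0.11, adjusted p = 0.026), and with S100A4 when the block was used (−0.39 ± 0.06, adjusted p = 0.0012). PKNOX2, also of this class, fell with both proteins (−0.94 ± 0.17) and with PDGF-BB (−0.59 ± 0.16).

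Of 12 tested relatives of TCF21 and HAND2, ATOH8 alone passed on groups alone. This atonal-related factor had 0.892 ± 0.373 CPM with both proteins, 1.45 ± 0.277 CPM with PDGF-BB, 5.10 ± 1.58 CPM with S100A4 and 9.23 ± 2.07 CPM in control cells. It fell 10.3-fold with both proteins (−3.37 ± 0.36) and 6.37-fold with PDGF-BB (−2.67 ± 0.34), and 1.83-fold with S100A4 under the block (−0.87 ± 0.17). MSC, the repressor musculin, had 30.9 ± 4.81 CPM with both proteins, 18.3 ± 1.88 CPM with PDGF-BB, 35.1 ± 1.91 CPM with S100A4 and 23.1 ± 4.98 CPM in control cells. With the block it was higher with both proteins than with PDGF-BB alone by 0.77 ± 0.12 (adjusted p = 0.00083). HAND1, the sister gene of HAND2, had at most 1 count in any library and was not tested.

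Of the forkhead family 18 relatives of FOXS1 were tested. With both proteins 5 rose and 2 fell, and with PDGF-BB 3 rose and 2 fell. FOXN3, a checkpoint-linked repressor, fell to 17.4 ± 0.802 CPM with both proteins and 18.8 ± 0.947 CPM with PDGF-BB, against 29.5 ± 0.680 CPM in control cells. FOXC2, a factor of vascular and lymphatic development, rose by 0.63 ± 0.11 in both of these comparisons, and is named after its values were seen. With S100A4 none of the 18 passed in either fit.

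The GATA list also held ZFPM1 and ZFPM2, which are cofactors of GATA factors and not members of the family. Of its 6 tested genes none passed on groups alone in any of the 3 comparisons with control. With the block ZFPM2 (0.34 ± 0.08) rose with PDGF-BB, GATA4 (−0.14 ± 0.04) fell with S100A4, and with both proteins GATA3 (0.36 ± 0.11) rose and ZFPM1 (−0.44 ± 0.09) fell, all named after their values were seen. GATA4, a cardiac partner of GATA6, had 131 ± 11.7 CPM with both proteins, 131 ± 12 CPM with PDGF-BB, 117 ± 11.4 CPM with S100A4 and 129 ± 13.5 CPM in control cells.

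Of 6 tested relatives of TOX with an HMG box, SOX6 alone passed on groups alone, falling with both proteins (−1.19 ± 0.17) and with PDGF-BB (−0.87 ± 0.17). TOX2, singled out after its values were seen, had 13.8 ± 2.24 CPM with both proteins, 15.4 ± 5.05 CPM with PDGF-BB, 12.9 ± 1.55 CPM with S100A4 and 15.1 ± 4.50 CPM in control cells, and did not pass. TOX3 had 2 to 30 counts with both proteins, 2 to 47 with PDGF-BB, 0 to 8 with S100A4 and 0 to 4 in control cells. It passed only with the block, with both proteins and with PDGF-BB.

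Among 47 tested factors of cardiac and vascular mesenchyme, 6 rose and 13 fell with both proteins, and 6 rose and 9 fell with PDGF-BB. SNAI1, a repressor of epithelial genes, had 67.4 ± 1.84 CPM with both proteins, 50.4 ± 7.95 CPM with PDGF-BB, 30.0 ± 0.0314 CPM with S100A4 and 21.9 ± 2.55 CPM in control cells. Its relative SNAI2 did not follow it. With the block SNAI2 was lower with both proteins than with PDGF-BB alone (−0.41 ± 0.08, adjusted p = 0.007).

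TBX2 and TBX3, T-box repressors of the heart's conduction system and cushions, also rose. TBX2 reached 42.0 ± 7.76 CPM with both proteins and 30.8 ± 1.56 CPM with PDGF-BB, against 17.2 ± 1.85 CPM in control cells. TBX3 reached 77.7 ± 18.0 CPM with both proteins, against 25.4 ± 5.40 CPM with S100A4 (1.61 ± 0.25, adjusted p = 0.0025).

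PRRX1, a homeodomain factor of limb and body-wall mesenchyme, had 174 ± 19.4 CPM with both proteins, 198 ± 4.22 CPM with PDGF-BB, 289 ± 6.84 CPM with S100A4 and 308 ± 12.9 CPM in control cells. It fell with both proteins (−0.82 ± 0.08) and with PDGF-BB (−0.64 ± 0.08). TSHZ1, a zinc finger factor, fell with both proteins (−0.77 ± 0.10). With S100A4 and the block, BNC2, a zinc finger factor of connective tissue cells, rose (0.57 ± 0.06, adjusted p = 4.4e-05) and MRTFA, a coactivator of serum response factor, fell (−0.21 ± 0.04, adjusted p = 0.0028). MRTFA (−0.24 ± 0.04) and MEF2C (−0.44 ± 0.10), a muscle differentiation factor, were lower with both proteins than with PDGF-BB alone in that fit.

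Markers of the muscle itself and of other cell types were counted beside these lists. With both proteins 1 of 10 smooth muscle markers fell on groups alone, and with the block 1 rose and 4 fell. With PDGF-BB 1 fell on groups alone, and with the block 1 rose and 5 fell. With S100A4 none passed on groups alone, where 1 had an unadjusted p under 0.05, and with the block ACTA2 (−0.18 ± 0.05), CNN1 (−0.19 ± 0.05), SMTN (−0.45 ± 0.05) and LMOD1 (−0.29 ± 0.09) fell. Of 8 fibroblast markers none passed on groups alone in the 3 comparisons with control, nor had any an unadjusted p under 0.05. With the block 2 rose and 3 fell with both proteins, 1 rose and 3 fell with PDGF-BB, and 2 rose and 1 fell with S100A4. Of all tested genes, 56.1% passed with the block with both proteins, 48.8% with PDGF-BB and 10.7% with S100A4. On groups alone 22.0%, 14.7% and 0.563% did, and 767 of 12444 had an unadjusted p under 0.05 with S100A4.

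Pericyte markers were read beside FOXS1, a mural cell factor, and beside MEIS1 and ERG, which were also higher in libraries with PDGF-BB. Of 6 markers 5 were tested, and the sum of all 6 was 1737, 389 and 1805 CPM in PDGF-BB+S100A4 cells (replicates 1, 2 and 3), 1638, 421 and 1918 CPM in PDGF-BB cells, 1167, 312 and 1504 CPM in S100A4 cells, and 1130, 319 and 1494 CPM in control cells. The sum was thus higher with PDGF-BB, added alone or with S100A4, than in the control of the same number, and CSPG4 and NOTCH3 made up nearly all of it. None passed on groups alone, where ABCC9 with PDGF-BB had an unadjusted p under 0.05. With the block CSPG4 rose with both proteins (0.73 ± 0.07) and with PDGF-BB (0.75 ± 0.07), whereas NOTCH3 fell in both (−0.37 ± 0.05 and −0.34 ± 0.05) and ABCC9 fell with PDGF-BB (−0.74 ± 0.24). In that fit 56.1% of all tested genes passed with both proteins and 48.8% with PDGF-BB. RGS5, a defining pericyte marker, averaged 2.83 CPM, ABCC9 1.06 CPM, KCNJ8 0.454 CPM and HIGD1B 0.201 CPM. CSPG4 averaged 994, 278 and 1104 CPM in replicates 1, 2 and 3, and NOTCH3 420, 73.5 and 574 CPM. Both were lowest in replicate 2, as was the smooth muscle marker MYH11 (1137, 348 and 1521 CPM). The sum is thus a reading of CSPG4 and NOTCH3, and pericyte content was not tested. The part of all these shifts in the values of the lineage factors was not tested.

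Genes whose level ran most like that of each factor were taken over the 12 libraries, from log2 CPM with the mean of each replicate number subtracted. Only genes with a symbol and a mean of at least 1 log2 CPM were compared, 9411 in all. TCF21 was followed by SHB (r = 0.993), M6PR (r = 0.993) and PLXND1 (r = 0.992), and ERG by TTYH3, RELT and STK10 (r = 0.996 each). FOXS1 was followed by NAA10 (r = 0.988), PCDH1 and TKT, and MEIS1 by CCN4 (r = 0.982), BCCIP and SS18L1. TOX ran most like HDGF (r = 0.988), AJUBA (r = 0.986) and MEIS2 (r = 0.985). HAND2 ran most like ANKRD44 (r = 0.975), PCED1A and PDZD9, and GATA6 like PPT2 (r = 0.942), ELMOD3 and RNASEH2A. These are descriptions over libraries that share treatments and replicate numbers. Without subtracting replicate means, none of the 3 stayed among the first 3 for any factor but TOX, which kept 1. For HAND2 and ANKRD44 the correlation was then 0.208.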

How the data were processed

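RNA sequencing counts were analysed from 12 libraries of cultured porcine coronary artery smooth muscle cells, 4 groups of 3. The authors deposited whole-number read counts per Ensembl gene, not normalized. Per the submitters' processing notes, CASAVA 1.8.2, STAR 2.4, featureCounts 1.4.6 and the build Sscrofa11.1 were used. The sources used here give no settings, annotation release, strand option or rule for multiply mapped reads, so counts of near-identical or overlapping genes are uncertain. Of 21153 identifiers, 14572 were matched to symbols.

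With edgeR 4.0.16, filterByExpr by group at a minimum count of 10 set the genes tested, and TMM the scaling. At the lowest library total, 1 CPM stands for about 21.5 counts. The quasi-likelihood test was two-sided, in 1 fit of all 12 libraries with 4 group means, with Benjamini-Hochberg adjustment over 12444 genes. Levels are CPM, and log2 CPM for plots, pairs and variance shares used a prior count of 2. Standard errors were derived from each fold change and its F value. R 4.3.3 was used, with limma 3.58.1 and DESeq2 1.42.0 for alternatives. As a check of the code, the fit on groups alone and the block fit were run on simulated counts. Nothing about error rates in these data is drawn from that check.

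The labels number replicates 1 to 3 and tie no number to an animal. Deviations from group means correlated at r = 0.746 to 0.908 in 18 same-numbered pairs of libraries and at −0.676 to 0.136 in 36 others, so the numbers were taken as pairing the libraries, from the data. With the block the common biological coefficient of variation was 5.14%, against 27.2% on groups alone. Chi-square per gene between libraries of a group was 22.9 to 163, so none was counted as a repeat. Since nothing ties libraries to separate animals, p-values reflect only the spread between libraries, which may be technical.

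The 7 genes, the companion list and the marker lists were chosen with earlier results of these data known. Of the companion list, up to 4 genes per direction and comparison with the smallest adjusted p were named, from the fit on groups alone or, where it called none, from the block. The 3 genes most like each factor were named by correlation. Any other gene, ETS2, SOX6, TOX3 and HAND1 included, was chosen after its values were seen, apart from markers. Alternatives were the block, RLE and upper-quartile scaling, no filter, a stricter filter (a mean of 5 CPM, and 1 CPM or more in at least 3 libraries), DESeq2, limma-voom, only the groups compared, and each library or number left out.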

Additional observations from a re-analysis of the deposited data

How the results depend on the processing

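The replicate numbers pair the libraries in the data, and the block raised these counts: of the 7 factors it passed 7 with PDGF-BB, 5 with S100A4, 3 for the combination against PDGF-BB and 6 against S100A4. Of the 114 companion factors it passed 83 with both proteins, 74 with PDGF-BB, 28 with S100A4, 24 for the combination against PDGF-BB and 72 against S100A4. In the same order, it passed 56.1%, 48.8%, 10.7%, 7.14% and 47.8% of all tested genes. It reversed no direction of the 7 factors. DESeq2 passed 1 factor and 5 companions with S100A4, 2 companions for the combination against PDGF-BB and 5 factors for it against S100A4. Over all genes it passed 198, 118 and 2284 in these comparisons. With only the PDGF-BB and control libraries fitted, 2 factors and 19 companions passed, and 1060 genes in all. The cause of these shifts was not tested.

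Upper-quartile scaling left 46.1% of called genes higher with both proteins, beside 60.1% under TMM, 49.0% beside 61.8% with PDGF-BB and 49.9% beside 63.2% for the combination against S100A4, with a median shift of −0.10 with both proteins. GATA6 for the combination against S100A4 was 0.01 and turned to −0.004 under RLE scaling, −0.038 under upper-quartile scaling, −0.012 under the stricter filter and −0.0025 in DESeq2. Limma-voom and no filter left all 42 values of the 7 factors on their side of the threshold and in their direction.

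With libraries or numbers left out, with or without the block, the factors passing were 1 to 7 with both proteins, 0 to 7 with PDGF-BB, 0 to 5 with S100A4, 0 to 3 for the combination against PDGF-BB and 0 to 6 against S100A4, all of the lowest on groups alone. Over all genes, 502 to 7008, 131 to 6332, 0 to 1521, 0 to 1306 and 10 to 5991 passed, in the same order. Companions passing were 12 to 84 with both proteins, 2 to 78 with PDGF-BB, 0 to 31 with S100A4, 0 to 27 for the combination against PDGF-BB, 0 to 74 against S100A4 and 0 to 3 for the interaction. HAND2 ranged from −3.05 to 0.46 with both proteins, from −2.32 to 1.30 with PDGF-BB, from −2.24 to 0.99 with S100A4, from −2.57 to 0.99 for the combination against PDGF-BB, from −2.26 to 0.89 against S100A4 and from −1.84 to 1.78 for the interaction. These HAND2 extremes all came on groups alone. With the block kept, HAND2 stayed between −1.36 and −1.25 with both proteins, −0.66 and −0.42 with PDGF-BB, and −0.82 and −0.46 with S100A4. In those block fits it was −0.86 to −0.65 for the combination against PDGF-BB and −0.88 to −0.51 against S100A4. For the interaction it was −0.38 to 0.09. ERG ranged from −0.16 to 0.52 with S100A4, from −0.07 to 0.21 for the combination against PDGF-BB and from −0.47 to 0.20 for the interaction. GATA6 ranged from −0.06 to 0.20 for the combination against PDGF-BB and from −0.08 to 0.13 against S100A4. MEIS1 ranged from −0.06 to 0.21 for the combination against PDGF-BB, and TCF21 from −0.32 to 0.16 for the interaction. The cause of these reversals was not tested.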
